A study of Mus musculus with 12 samples.

Results

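The 10 genes described here encode proteins of the intercalated disc, the junction that joins heart muscle cells end to end. They were chosen by symbol, and all 10 of the 53801 genes in the files were found. *Gja1*, *Gja5* and *Gjc1* encode connexins 43, 40 and 45. *Dsp*, *Pkp2*, *Jup*, *Dsg2* and *Dsc2* encode proteins of the desmosome. *Cdh2* encodes N-cadherin and *Xirp1* an actin-binding repeat protein. RNA of whole hearts was sequenced from adult male C57BL/6N mice without a transgene or deletion, 4 after sham surgery, 4 on day 1 and 4 on day 7 after acute myocardial infarction (AMI). To produce AMI, the left anterior descending coronary artery was ligated under isoflurane. A library was made from each heart, and the day on which sham hearts were taken is not given in the sources used here. The question was how the levels of these genes differ between the 3 groups of hearts.

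The intercalated disc combines 3 kinds of contact. Gap junctions are built of connexins and pass the electrical impulse from cell to cell. Desmosomes hold cells together against mechanical load: the cadherins desmoglein-2 and desmocollin-2 span the gap, plakoglobin and plakophilin-2 bind their tails, and desmoplakin ties the complex to desmin filaments. Adherens junctions join the actin filaments of neighboring cells through N-cadherin and the catenins. Inherited defects of desmosomal genes are known for arrhythmogenic cardiomyopathy, and connexin 43 is known to leave the disc and spread along the cell sides near infarcts. In bulk RNA from hearts, fewer cells of a type and less RNA per cell cannot be told apart.

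The genes lie on 7 chromosomes of GRCm38. *Gja1* spans chr10:56377330-56402513 and *Gja5* spans chr3:96904693-97077416, both on the plus strand. Of the 10 genes, 4 matched an entry in the RefSeq promoter table (GRCm38.p6). The sequences of *Gja1*, the main connexin of the working ventricle, and of *Gja5* are shown because the ratio of these connexins shifted in the data below. Each run is the 100 bases before the RefSeq start, read 5′ to 3′ along the gene, and capitals mark a match to the AP-1 motif TGANTCA, which reads the same on both strands.
*Gja1*, chr10:56377200-56377299, plus strand: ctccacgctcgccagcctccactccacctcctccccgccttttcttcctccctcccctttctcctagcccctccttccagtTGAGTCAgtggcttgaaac
*Gja5*, chr3:97032302-97032401, plus strand: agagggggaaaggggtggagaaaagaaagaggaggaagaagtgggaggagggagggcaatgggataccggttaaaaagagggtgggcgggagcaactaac
In the 250 bases before the start, searched on both strands, *Gja1* held 1 AP-1 match and 1 match to AGATAA, the letters of a GATA motif, and *Gja5* held neither. Of 32851 mouse promoters of that length, 6.75% held the AP-1 letters, 9.99% held AGATAA and 12.4% held TATAAA, which neither gene had. A match is a description of letters and not a site.

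The libraries held between 23204551 and 32166517 counts. Levels are given as CPM, counts scaled to a common library total after TMM normalization, which sets the scale so that most genes do not differ. The factors ran from 0.781 to 0.917 in sham, 1.01 to 1.06 in day 1 AMI and 1.10 to 1.17 in day 7 AMI, and mitochondrial transcripts took 17.9% to 27.4% of counts in sham hearts, 12.1% to 15.9% on day 1 and 13.2% to 19.2% on day 7. Without these factors the median log2 FC of all 15306 genes tested was 0.26 on day 1, 0.43 on day 7 and 0.15 between the days, against −0.01, 0.03 and 0.02 with them. On TPM, a level per transcript length compared as log2(TPM + 1), the medians were 0.23, 0.44 and 0.18. The share of called genes that were higher was 52.5%, 52.1% and 51.4% with the factors, 85.6%, 83.2% and 68.8% without them, and 89.3%, 90.2% and 80.6% on TPM. A change under TMM is thus a change relative to most genes, and members whose direction turned on the other scales are named.

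The hearts also differed in their cell type markers, and the part of these in the results was not tested. Of 12 cardiomyocyte markers, 10 were lower on day 1 and 11 on day 7 against sham, none was higher, and none was at 0. Their summed level was 76738 to 91407 CPM in sham, 45412 to 58254 on day 1 and 39606 to 48301 on day 7. Of 7 fibroblast markers, 5 were higher and 1 lower on day 1, and 7 were higher on day 7, with sums of 960 to 1209, 1451 to 1977 and 6702 to 12405 CPM. Of 7 endothelial markers, 4 were lower on day 1, and 4 were higher and 1 lower on day 7, with sums of 1236 to 1414, 930 to 997 and 1466 to 1606 CPM. Of 9 leukocyte markers, of which *Itgam* stands on 2 identifiers and is counted for each, 8 of 10 were higher on day 1 and 7 of 10 on day 7, with sums of 195 to 295, 412 to 639 and 621 to 939 CPM. Of 7 smooth muscle and pericyte markers, 1 was higher and 3 lower on day 1, and 3 were higher and 2 lower on day 7, with sums of 1180 to 1338, 787 to 892 and 1167 to 1659 CPM. Of 5 erythroid markers, 3 were lower at each time, with sums of 491 to 4450, 420 to 649 and 241 to 969 CPM.

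All 10 genes passed the filter on low counts, and the fewest counts for any of them in a library were 156, for *Gja5*. A gene was called changed at an FDR below 0.05 over all genes tested, by the edgeR quasi-likelihood test. The 3 comparisons share hearts, so each is given with its own values.

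On day 1 after AMI, the levels of *Gja5*, *Pkp2* and *Xirp1* rose against sham, and those of *Dsp* and *Dsg2* fell. These were 3 of 10 genes higher and 2 of 10 lower, beside 22.0% and 19.9% of all genes tested. None reached a FC of 2, which 7.79% of all genes passed upward and 2.98% downward. The median log2 FC of the 10 genes was 0.06, from −0.40 for *Dsg2* to 0.77 for *Xirp1*. The rises of *Gja5* and *Xirp1* were called in all 11 other settings and in all 12 fits that left out 1 heart.

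On day 7, the levels of *Gja5* and *Gjc1* rose against sham, and those of *Dsp*, *Cdh2*, *Dsg2*, *Dsc2* and *Xirp1* fell. These were 2 of 10 genes higher and 5 of 10 lower, beside 30.9% and 28.4% of all genes. *Dsg2* alone reached a FC of 2, beside 5.88% of all genes downward and 15.3% upward. The median log2 FC of the 10 genes was −0.34, against 0.03 for all genes. The rises of *Gja5* and *Gjc1* and the fall of *Dsg2* were called in all 11 other settings and in all 12 fits that left out 1 heart.

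Between day 1 and day 7, *Gjc1* rose, and *Gja1*, *Dsp*, *Pkp2*, *Cdh2*, *Dsg2* and *Xirp1* fell. These were 1 of 10 genes higher and 6 of 10 lower, beside 24.2% and 22.8% of all genes. *Xirp1* alone reached a FC of 2, beside 2.69% of all genes downward and 8.55% upward. The rise of *Gjc1* and the falls of *Pkp2*, *Cdh2*, *Dsg2* and *Xirp1* were called in all 11 other settings and in all 12 fits that left out 1 heart.

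**Figure D1:**
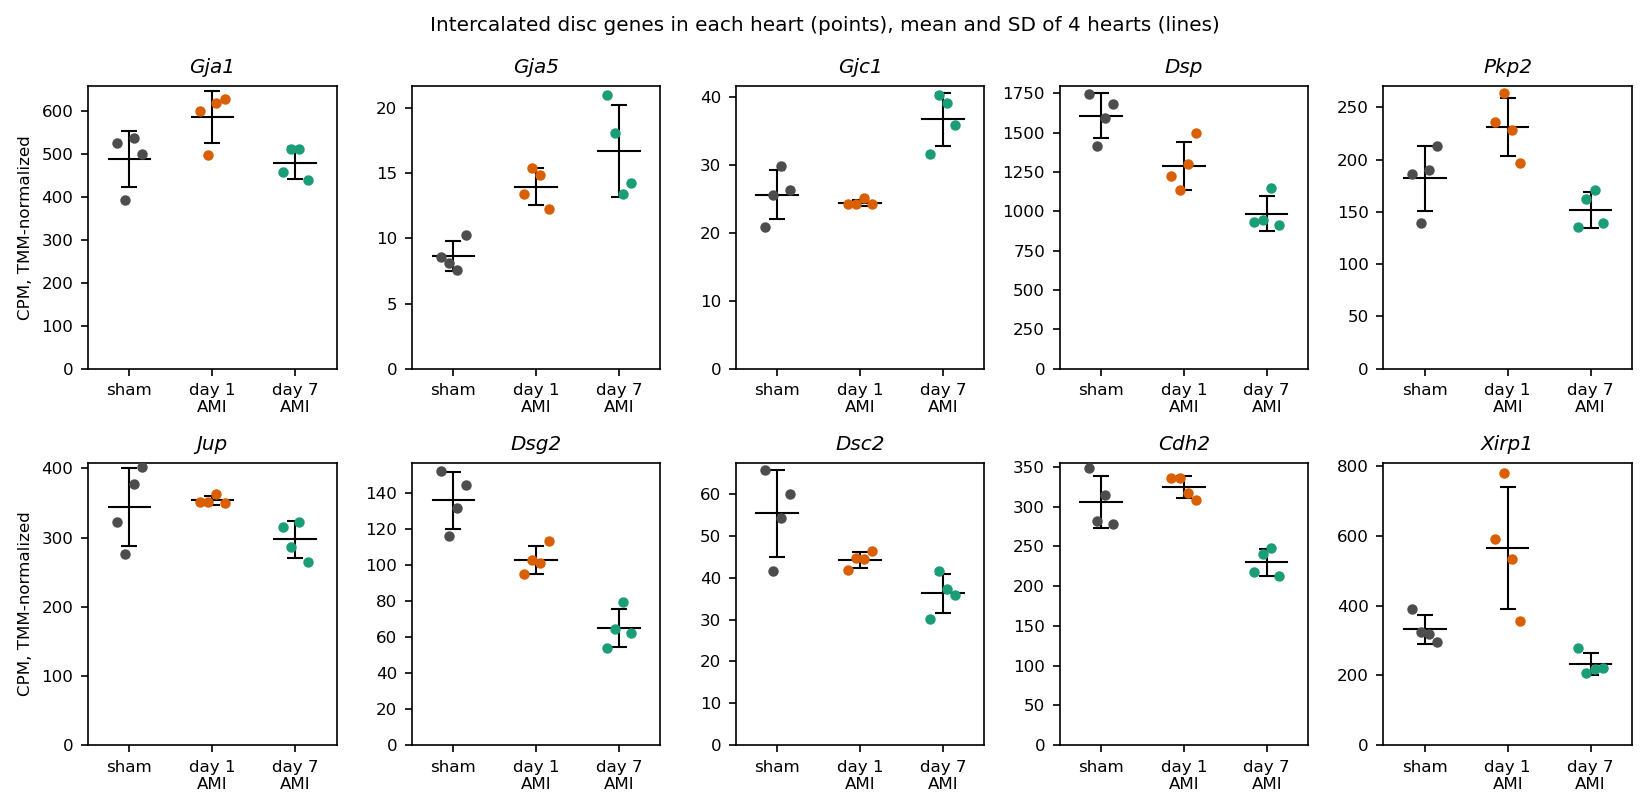
CPM after TMM normalization (vertical axis, from 0) of each of the 10 genes by group, with a point per heart and lines for the mean and SD of 4 hearts. *Xirp1* has its highest values on day 1 (354.8 to 782 CPM), *Gjc1* on day 7 (31.5 to 40.2 CPM), and *Dsg2* steps down from sham to day 1 to day 7 without overlap.

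Among the connexins, the abundant *Gja1* differed little between sham and day 7 while the less abundant *Gja5* and *Gjc1* rose. *Gja1*, which encodes connexin 43, the main gap junction protein of ventricular muscle, was at 526, 393, 537 and 499 CPM in the sham hearts. It was at 600, 498, 618 and 628 CPM on day 1 and at 458, 512, 511 and 439 CPM on day 7. The groups overlapped in every pair. The log2 FC was 0.26 ± 0.11 (SE) on day 1 (edgeR adjusted p = 0.0715) and −0.03 ± 0.11 on day 7 (edgeR adjusted p = 0.852). Without day 1 heart 2, the lowest of its group, the day 1 value was called, at 0.33 (edgeR adjusted p = 0.0326). It was also called on TPM, at 0.59 (limma adjusted p = 0.000525), and without the TMM factors, at 0.54 (edgeR adjusted p = 0.000652). From day 1 to day 7 the level fell by 18.1% (edgeR adjusted p = 0.0450), but this was not called without sham heart 4, day 1 heart 1, 3 or 4, or day 7 heart 1, 2 or 4, 7 of the 12 fits that left out 1 heart, where its adjusted p reached 0.123. It was not called with a replicate block (edgeR adjusted p = 0.0545), without the TMM factors, at −0.16 (edgeR adjusted p = 0.204), or on TPM, at −0.052 (limma adjusted p = 0.698). On TPM the day 7 value was higher than sham, at a log2 FC of 0.54 (limma adjusted p = 4e-04), and without the TMM factors it was 0.38 (edgeR adjusted p = 0.00461).

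*Gja5* encodes connexin 40, which is known from atrial muscle, the conduction system and arterial endothelium. Its level was 8.61, 8.13, 7.57 and 10.3 CPM in the sham hearts. It was 13.4, 15.4, 14.9 and 12.2 CPM on day 1 and 21.0, 18.1, 13.4 and 14.3 CPM on day 7. All 8 AMI hearts were above all 4 sham hearts, and the AMI groups overlapped. The rise was 1.62-fold on day 1 (log2 FC 0.70 ± 0.15, edgeR adjusted p = 0.00226) and 1.93-fold on day 7 (0.95 ± 0.15, edgeR adjusted p = 8.33e-05). Between the days the log2 FC was 0.26 ± 0.14 (edgeR adjusted p = 0.160), and it was called without the TMM factors, at 0.38 (edgeR adjusted p = 0.0416), and on TPM, at 0.44 (limma adjusted p = 0.0392).

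The cell types known for connexin 40 were followed by their markers. Of 7 atrial markers, 1 was higher and 1 lower on day 1, and 3 were higher and 1 lower on day 7. Their sums were 113 to 929 CPM in sham, 508 to 1295 on day 1 and 1293 to 1926 on day 7, and none was at 0. The mean log2 CPM of these markers was 4.29 ± 1.41 (SD, n = 4) in sham, 4.58 ± 0.49 on day 1 and 4.54 ± 0.39 on day 7. Of these, *Nppa*, the gene of atrial natriuretic peptide, which ventricular muscle also makes under strain, had a log2 FC of 1.99 on day 1 and 2.73 on day 7, while *Myl7*, the atrial myosin light chain, was at 0.32 and −0.77 and was not called. The marker that fell was *Bmp10*, an atrial growth factor gene, at −3.49 ± 1.19 on day 1 (edgeR adjusted p = 0.0298) and −5.28 ± 1.39 on day 7 (edgeR adjusted p = 0.00453). Of 6 conduction markers tested, 1 was higher on day 1, and 2 were higher and 1 lower on day 7, with sums of 55.1 to 74.5, 58.9 to 72.5 and 50.2 to 58.6 CPM. Their mean log2 CPM was 2.51 ± 0.17 in sham, 2.78 ± 0.08 on day 1 and 2.81 ± 0.10 on day 7. Of 5 arterial endothelial markers tested, 1 was lower on day 1 and 1 higher on day 7, with sums of 90.6 to 155, 118 to 145 and 120 to 148 CPM. Their part in the rise of *Gja5* was not tested. Of the 75-base stretches in *Gja5* transcripts, 12.4% also occur in transcripts of *Zfp697*, whose own log2 FC was 1.13 on day 1 and 0.36 on day 7, and 2.87% of its exon bases overlap *Gpr89* on the other strand. How reads shared by genes were counted is not given in the sources used here.

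*Gjc1* encodes connexin 45, known from the conduction system and the embryonic heart. Its level was 20.9, 25.5, 29.7 and 26.3 CPM in sham hearts and 24.2, 24.2, 25.1 and 24.3 CPM on day 1, where the groups overlapped. On day 7 it was 31.5, 40.2, 39.1 and 35.8 CPM, above all other hearts. The log2 FC was −0.07 ± 0.11 on day 1 (edgeR adjusted p = 0.628), turning to 0.20 without the TMM factors and 0.24 on TPM. It was 0.52 ± 0.10 on day 7 (edgeR adjusted p = 0.000685) and 0.59 ± 0.10 between the days (edgeR adjusted p = 0.000427).

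Per transcript length, *Gja1* made up most of the connexin transcripts in every heart. Of the summed TPM of 20 connexins, *Gja1* took 81.5% ± 2.63 (SD, n = 4) in sham, 84.4% ± 1.96 on day 1 and 78.0% ± 0.96 on day 7. *Gjc1* took 7.08% ± 1.15, 5.79% ± 0.47 and 9.65% ± 0.67, and *Gja5* took 1.67% ± 0.38, 2.10% ± 0.36 and 2.88% ± 0.81. *Gja4*, the arterial connexin 37, took 3.87% ± 1.19, 3.57% ± 0.71 and 5.51% ± 0.66. *Gja3*, which encodes connexin 46, took 5.37% ± 0.97, 3.23% ± 0.40 and 2.77% ± 0.11. The shares of *Gja1* on day 7, from 76.8% to 79.1%, lay below those of all day 1 hearts and overlapped those of sham.

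The desmosomal genes did not move as a block. *Dsg2*, desmoglein-2, the desmosomal cadherin of heart muscle, had the largest fall of the 10 genes against sham. It was at 152, 116, 132 and 144 CPM in sham hearts, 94.8, 103, 101 and 113 CPM on day 1, and 53.8, 64.3, 79.5 and 62.3 CPM on day 7. No pair of groups overlapped, with day 7 lowest. The level fell by 24.2% on day 1 (log2 FC −0.40 ± 0.12, edgeR adjusted p = 0.0128) and by 52.2% on day 7 (−1.07 ± 0.12, edgeR adjusted p = 3.39e-06). From day 1 to day 7 it fell by 37.0% (−0.67 ± 0.12, edgeR adjusted p = 0.000357). On TPM the day 1 groups overlapped, at 24.5 to 27.7 in sham and 22.9 to 29.1 on day 1, and day 7 was at 15.7 to 22.2. The day 1 fall was not called on TPM, at −0.065 (limma adjusted p = 0.647), or without the TMM factors, at −0.12 (edgeR adjusted p = 0.373).

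*Dsc2*, desmocollin-2, the partner cadherin, lies on chromosome 18 with *Dsg2* and *Cdh2*. It was at 65.8, 41.5, 54.4 and 59.9 CPM in sham hearts. It was at 41.8, 44.7, 44.5 and 46.3 CPM on day 1 and at 30.2, 41.6, 37.4 and 35.9 CPM on day 7. The second sham heart lay below all day 1 hearts and within the range of day 7. The level fell by 34.5% on day 7 (log2 FC −0.61 ± 0.13, edgeR adjusted p = 0.000828), and the value on day 1 was −0.32 ± 0.13 (edgeR adjusted p = 0.0544). Without the second sham heart the day 1 value was called, at −0.44 (edgeR adjusted p = 0.00481), and it was also called without day 7 heart 1. On TPM the values against sham were −0.050 for day 7 and 0.025 for day 1, and without the TMM factors the day 7 value was −0.20 (edgeR adjusted p = 0.124), none of them called. Between the days the log2 FC was −0.29 ± 0.13 (edgeR adjusted p = 0.0726), and the groups did not overlap. This fall was called on only the groups compared (DESeq2 adjusted p = 0.0135, edgeR adjusted p = 0.0253) and without sham heart 2 or day 7 heart 2. On TPM it was −0.075 (limma adjusted p = 0.602).

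*Dsp* encodes desmoplakin, which links the desmosome to intermediate filaments, and had the most counts of the 10 genes. It was at 1746, 1413, 1596 and 1680 CPM in sham hearts, 1222, 1135, 1298 and 1497 CPM on day 1, and 935, 944, 1148 and 916 CPM on day 7. Day 7 lay below sham without overlap, and day 1 overlapped both other groups. The level fell by 38.7% on day 7 (log2 FC −0.71 ± 0.11, edgeR adjusted p = 7.55e-05), and from day 1 to day 7 it fell by 23.5% (−0.39 ± 0.11, edgeR adjusted p = 0.0101). On day 1 it fell by 19.9% (−0.32 ± 0.11, edgeR adjusted p = 0.0300). This was not called in 6 of the 12 fits that left out 1 heart, with an adjusted p of up to 0.0946. These left out sham heart 1, 3 or 4, or day 1 heart 1, 2 or 3. The day 1 fall was also not called without the filter on low counts (edgeR adjusted p = 0.0566). It was not called without the TMM factors, at −0.041 (edgeR adjusted p = 0.759). Nor was it called on TPM, where the groups overlapped (184 to 201 TPM in sham and 174 to 236 on day 1). On TPM the day 7 falls were not called either, at −0.16 against sham (limma adjusted p = 0.163) and −0.15 against day 1 (limma adjusted p = 0.221). Of its exon bases, 5.17% overlap *Gm10129* on the other strand, as 3.99% of those of *Dsg2* overlap *Gm16090*.

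*Pkp2* encodes plakophilin-2, which binds desmoplakin and desmosomal cadherins. It was at 186, 139, 190 and 213 CPM in sham hearts, 236, 264, 228 and 197 CPM on day 1, and 135, 163, 171 and 140 CPM on day 7. Every day 1 heart was above every day 7 heart, and sham overlapped both. From day 1 to day 7 it fell by 34.2% (log2 FC −0.60 ± 0.13, edgeR adjusted p = 0.00161). The 1.27-fold rise on day 1 had a log2 FC of 0.35 ± 0.13 (edgeR adjusted p = 0.0433). It was not called in 8 of the 12 fits that left out 1 heart, with an adjusted p of up to 0.130. These left out sham or day 1 heart 1, 2 or 3, or day 7 heart 2 or 4. Nor was the rise called with a replicate block (edgeR adjusted p = 0.0749) or on only the groups compared (edgeR adjusted p = 0.0558). The day 7 value against sham was −0.26 ± 0.13 (edgeR adjusted p = 0.0972), was 0.30 on TPM (limma adjusted p = 0.0296), and was called as lower when the second sham heart was left out (edgeR adjusted p = 0.0126).

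*Jup* encodes plakoglobin, shared by desmosomes and adherens junctions. It was at 322, 276, 378 and 402 CPM in sham hearts, at 349 to 363 CPM on day 1 and at 265 to 323 CPM on day 7. It was not called in any comparison of the edgeR fit of the 3 groups, with log2 FCs of 0.04 ± 0.11, −0.21 ± 0.11 and −0.25 ± 0.11. The day 1 and day 7 groups did not overlap. The fall between them was called by DESeq2 (DESeq2 adjusted p = 0.0401) and on only the groups compared (edgeR adjusted p = 0.0198). On TPM this fall was −0.024 and was not called (limma adjusted p = 0.874). On TPM the day 1 and day 7 values against sham were 0.38 (limma adjusted p = 0.0119) and 0.36 (limma adjusted p = 0.0103), both called as higher, and without the TMM factors the day 1 value was called at 0.31 (edgeR adjusted p = 0.0258). Leaving out the second sham heart, the lowest, gave a day 7 value of −0.31 (edgeR adjusted p = 0.0141).

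*Cdh2* encodes N-cadherin, which fibroblasts also make. It was at 349, 282, 315 and 278 CPM in sham hearts, 336, 336, 317 and 308 CPM on day 1, and 217, 240, 248 and 213 CPM on day 7. All day 7 hearts lay below all others, and sham and day 1 overlapped. The level fell by 24.9% against sham (log2 FC −0.41 ± 0.09, edgeR adjusted p = 0.00106), and it fell by 29.2% against day 1 (−0.50 ± 0.09, edgeR adjusted p = 0.000424). The day 1 value was 0.09 ± 0.09 (edgeR adjusted p = 0.462), and it was called as higher on TPM, at 0.38 (limma adjusted p = 0.00121), and without the TMM factors, at 0.36 (edgeR adjusted p = 0.00185). The day 7 value against sham turned to 0.13 on TPM (limma adjusted p = 0.124) and was −0.010 without the TMM factors (edgeR adjusted p = 0.916), and the fall from day 1 to day 7 was called in every setting.

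*Xirp1* encodes a protein of the disc and of the ends of the contractile filaments that binds actin. It was at 391, 323, 319 and 295 CPM in sham hearts, 591, 782, 534 and 354.8 CPM on day 1, and 279, 208, 218 and 222 CPM on day 7. The fourth day 1 heart lay within the sham range and the other 3 lay above it, and day 7 lay below both other groups. The rise on day 1 was 1.70-fold (log2 FC 0.77 ± 0.18, edgeR adjusted p = 0.00456). From day 1 to day 7 the level fell by 59.0% (−1.29 ± 0.19, edgeR adjusted p = 9.03e-05). On day 7 it fell by 30.2% against sham (−0.52 ± 0.18, edgeR adjusted p = 0.0255). This was not called in 4 of the 12 fits that left out 1 heart, with an adjusted p of up to 0.0761. These left out sham heart 1, or day 7 heart 2, 3 or 4. The day 7 value was not called without the TMM factors, at −0.11 (edgeR adjusted p = 0.595), and it turned to 0.037 on TPM.

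Ratios of paired genes within a heart do not depend on how libraries are scaled. The transcripts of 6 pairs of related proteins were compared by an exact two-sided permutation test of 4 hearts against 4. The smallest p this test can give is 0.0286, and 12 of the 18 tests reached it. With 12 at this value, the adjustment over 18 tests makes it 0.0429. How often the ratios of other gene pairs separate to this degree was not tested. The other 6 adjusted p-values ran from 0.0791 to 0.286. With 1 heart left out, the unadjusted exact permutation p of 5 of the 12 stayed at 0.0286 in every fit, and for the other 7 it was 0.0571, the next value the test can give, without the hearts named with each ratio.

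The balance of connexin transcripts and of desmosomal cadherin transcripts shifted on day 7. The *Gja5*/*Gja1* ratio was 1.93-fold that of sham on day 7 (log2 difference 0.95, exact permutation adjusted p = 0.0429), and on log2(TPM + 0.1) it was 0.81 with an exact permutation p of 0.0571, as it was without sham heart 3 (0.84). The *Gjc1*/*Gja1* ratio was 1.46-fold that of sham and 1.82-fold that of day 1 on day 7, both with an exact permutation adjusted p of 0.0429, and the value against sham was at 0.0571 without any 1 of the day 7 hearts (log2 difference 0.51 to 0.59). The *Dsc2*/*Dsg2* ratio was 1.39-fold that of sham and 1.30-fold that of day 1 on day 7, again with 0.0429 for both by the exact permutation test. These were at 0.0571 without any 1 of the sham hearts (0.41 to 0.51) and any 1 of the day 1 hearts (0.35 to 0.39). Per length, *Dsc2* was at 0.549 of *Dsg2* in sham, 0.586 on day 1 and 0.759 on day 7.

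The ratios of plaque protein transcripts shifted as early as day 1. The *Pkp2*/*Dsp* ratio was 1.60-fold that of sham on day 1 and 1.38-fold on day 7, without overlap and with an exact permutation adjusted p of 0.0429 for both. The exact permutation p was 0.0571 on day 1 without any 1 of the sham hearts (log2 difference 0.62 to 0.74) and on day 7 without day 7 heart 2 (0.41). The ratio of *Jup* to *Ctnnb1*, which encodes the related beta-catenin, moved in opposite directions. It was 1.27-fold that of sham on day 1 and 0.756 of sham on day 7, and all 3 pairs of groups were without overlap at an exact permutation adjusted p of 0.0429. With the TMM factors, *Ctnnb1* itself fell by 18.5% on day 1 (edgeR adjusted p = 0.0192). It was 1.41-fold higher on day 7 than on day 1 (edgeR adjusted p = 0.000619). On TPM *Ctnnb1* did not fall on day 1, at 152 to 225 in sham and 185 to 218 on day 1, and was at 318 to 355 on day 7. *Jup* was not called in the edgeR fit of the 3 groups, and its fall between the days was called in the settings named above. Its day 1 value was called as higher on TPM, at 0.38 (limma adjusted p = 0.0119). This was also so without the TMM factors, at 0.31 (edgeR adjusted p = 0.0258). Which gene of the pair moved on day 1 thus depends on the scaling.

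The paralogs *Xirp1* and *Xirp2*, both actin-binding proteins of the disc, rose together on day 1 but to unequal extents. *Xirp2* was at 392 to 602 CPM in sham, 831 to 2139 CPM on day 1 and 726 to 1171 CPM on day 7. It rose 3.57-fold on day 1 (edgeR adjusted p = 0.000105) and was 1.88-fold higher than sham on day 7 (edgeR adjusted p = 0.00515). The *Xirp1*/*Xirp2* ratio was 0.486 of sham on day 1 and 0.372 of sham on day 7, with an exact permutation adjusted p of 0.0429 for both, and with an exact permutation p of 0.0571 on day 7 without sham heart 2 (log2 difference −1.34). Per length, *Xirp1* was above *Xirp2* in every sham heart, at a TPM ratio of 1.34 to 1.74, and below it in every AMI heart, at 0.545 to 0.898 on day 1 and 0.372 to 0.808 on day 7.

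**Figure D2:**
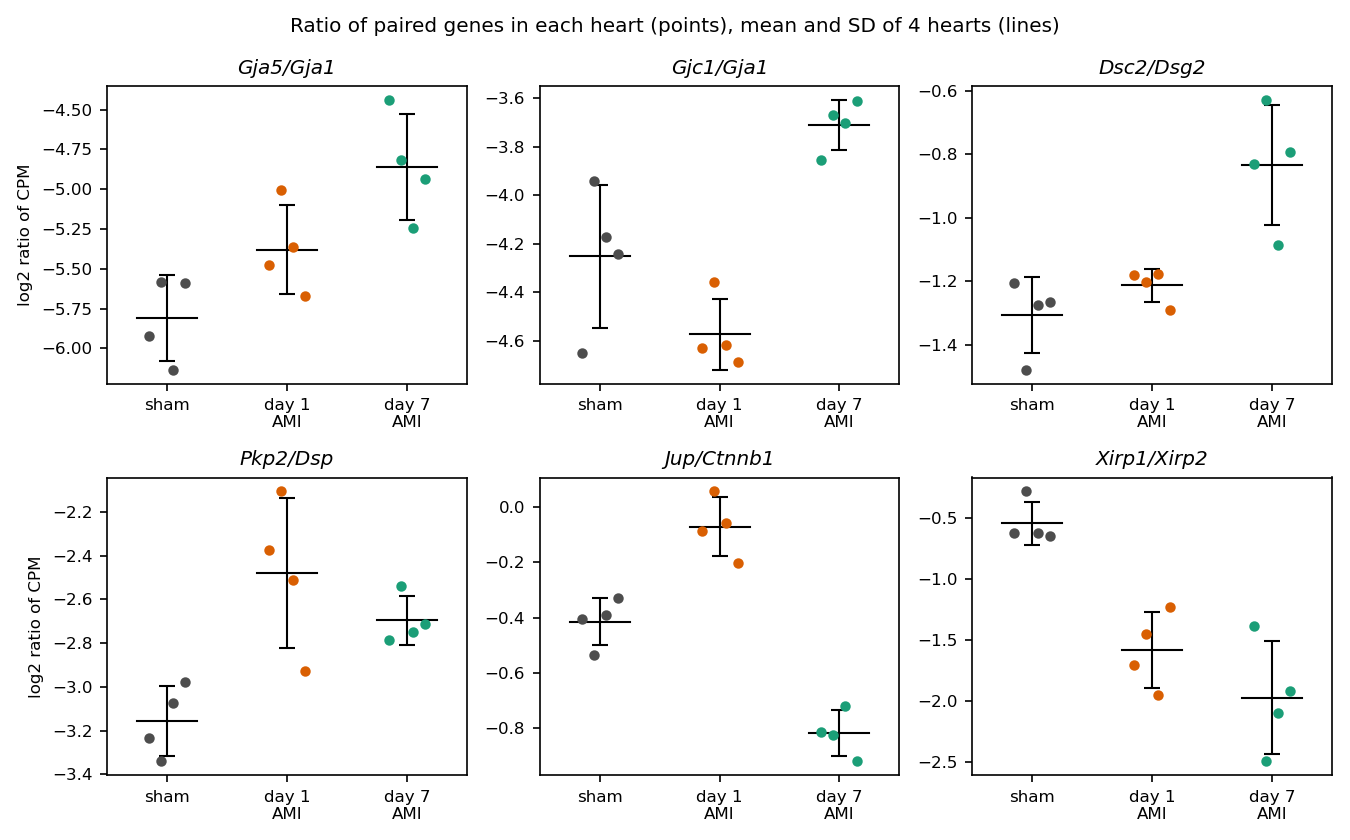
Log2 ratio of CPM of 6 gene pairs (vertical axis) by group, with a point per heart and lines for the mean and SD of 4 hearts. *Jup*/*Ctnnb1* separates all 3 groups, highest on day 1 (mean −0.07) and lowest on day 7 (mean −0.82), and *Xirp1*/*Xirp2* is lower in all AMI hearts than in all sham hearts.

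The 10 genes were next set against cardiomyocyte transcripts by scaling each library to the geometric mean of 12 cardiomyocyte markers, none of which is among them. On this scale 8 of the 10 genes were higher and 0 lower on day 1, beside 64.2% and 2.65% of all genes, by the edgeR test. All 10 log2 FCs were above 0. On day 7, 7 were higher and 0 lower against sham, beside 79.3% and 2.80% of all genes. The median log2 FC of the 10 genes was 0.63 on day 1, against 0.55 for all genes, and 0.55 on day 7, against 0.91 for all genes.

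Relative to cardiomyocyte transcripts, *Gja5* was at a log2 FC of 1.27 ± 0.18 on day 1 and 1.85 ± 0.18 on day 7, and *Gjc1* at 0.50 ± 0.13 and 1.40 ± 0.13. *Gja1* was at 0.83 ± 0.09 and 0.87 ± 0.09, beside medians of 0.55 and 0.91 for all genes. *Dsg2* was at 0.17 ± 0.11 (edgeR adjusted p = 0.166) on day 1 and −0.18 ± 0.11 (edgeR adjusted p = 0.128) on day 7, the smallest change of the 10 genes on day 1 and the only one below 0 on day 7. *Dsp* was at 0.24 ± 0.08 and 0.18 ± 0.08, and *Dsc2* at 0.26 ± 0.13 and 0.29 ± 0.13. The day 7 call of *Dsc2* (edgeR adjusted p = 0.0473) was lost in 8 of the 12 fits that left out 1 heart (sham heart 2, 3 or 4, day 1 heart 1, 3 or 4, or day 7 heart 2 or 4), with an adjusted p of up to 0.183. The day 1 call of *Dsp* (edgeR adjusted p = 0.0188) was lost without sham heart 3 or day 1 heart 4, with up to 0.0586. The scale was also tried with a shorter marker list and with a replicate block. The day 7 call of *Dsc2* was lost in both settings and the day 1 call of *Dsp* in 1 of them. In these settings 7 to 8 of the 10 genes were higher on day 1 and 6 on day 7 against sham. Between the days, 2 genes were higher, *Gja5* and *Gjc1*, and 2 were lower, *Dsg2* and *Xirp1*, beside 43.0% and 6.02% of all genes. *Xirp1* fell by 0.99 on the log2 scale (edgeR adjusted p = 0.00184) and *Dsg2* by 0.35 (edgeR adjusted p = 0.0134).

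**Figure D3:**
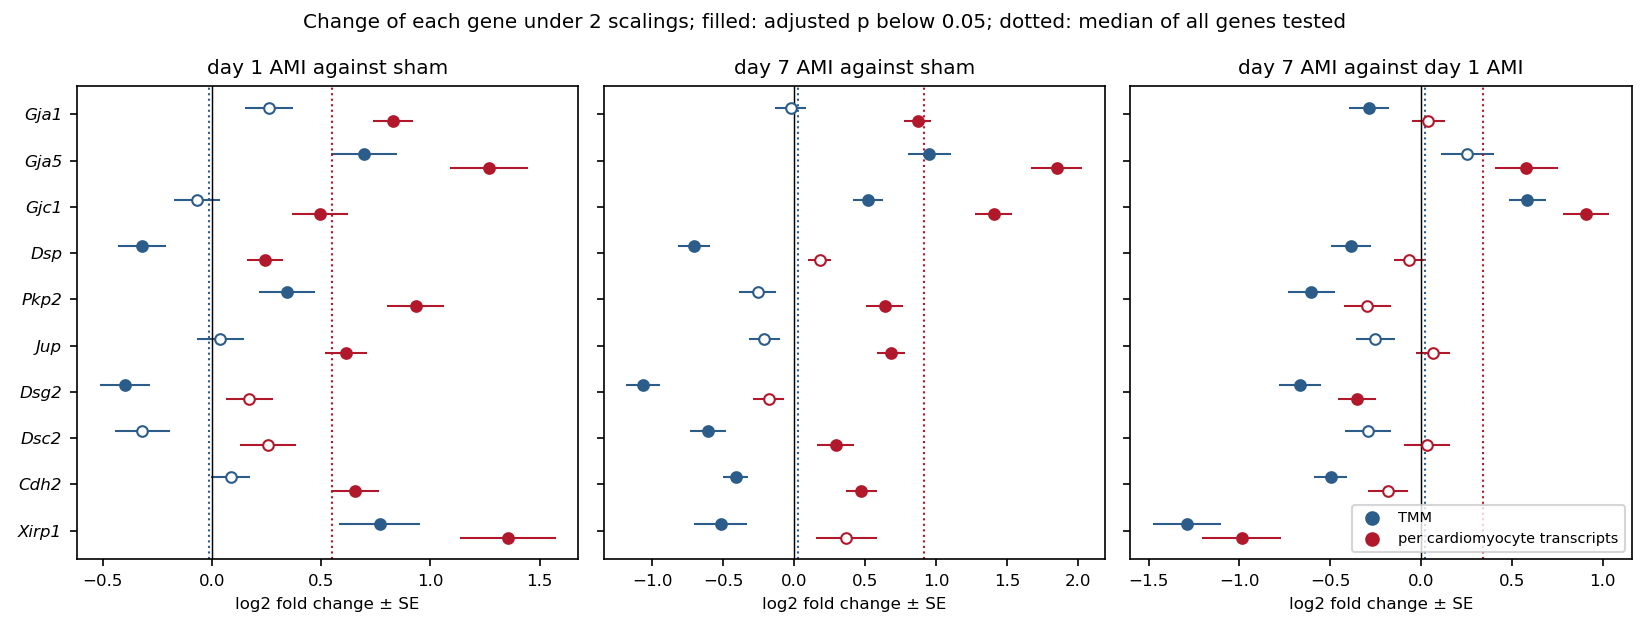
Log2 FC with SE (horizontal axis) of the 10 genes in 3 comparisons, with TMM normalization (blue) and relative to cardiomyocyte transcripts (red), filled where the adjusted p was below 0.05, and dotted lines at the median of all genes tested. On day 7 against sham, *Gja5* and *Gjc1* lie to the right of both medians and the other 8 genes lie to the left of both.

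Length-normalized levels put the genes in a fixed range of abundance. In sham hearts *Dsp* was at 195 TPM ± 7.38 (SD, n = 4) and *Gja1* at 188 ± 21.2, which overlapped. *Jup* at 132 ± 21.7 lay below both. *Cdh2* at 80.8 ± 5.42, *Pkp2* at 74.0 ± 10.8 and *Xirp1* at 64.2 ± 6.00 each overlapped the next. *Dsg2* at 26.6 ± 1.47 stood apart, *Gjc1* at 16.3 ± 3.17 and *Dsc2* at 14.7 ± 1.77 overlapped, and *Gja5* at 3.80 ± 0.65 was lowest. On day 1 *Gja1* was highest at 283 ± 31.7, above *Dsp* at 195 ± 28.0, and *Xirp1* at 136 ± 41.5 overlapped *Pkp2* at 118 ± 12.7. On day 7 *Gja1* was at 272 ± 13.7, and *Gjc1* at 33.6 ± 2.97 was above *Dsg2* at 18.8 ± 2.68 in every heart, the reverse of sham.

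**Figure D4:**
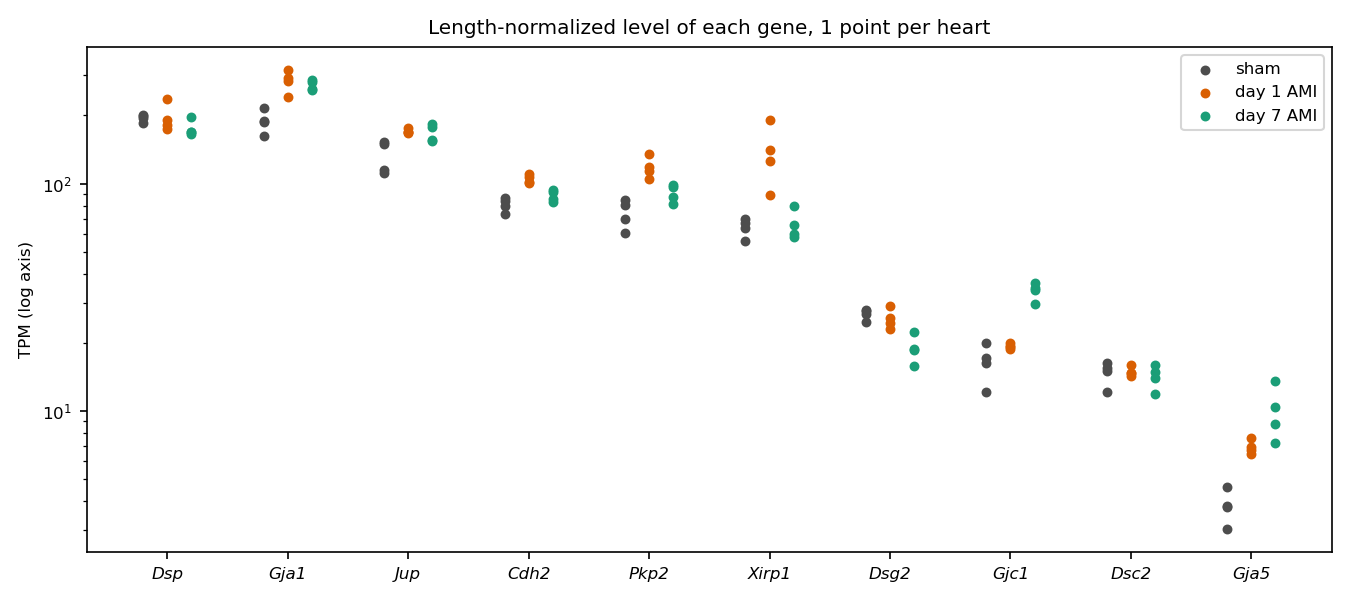
TPM (log axis) of the 10 genes in order of their sham mean, with a point per heart, in sham (grey), day 1 AMI (orange) and day 7 AMI (green) hearts. *Gja5* (3.01 to 13.5 TPM) has the lowest mean in each group and *Gjc1* passes *Dsg2* on day 7.

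The other disc genes were taken from 4 lists of 53 symbols, of which 33 passed the filter. Of the 33, 10 were higher and 7 lower on day 1, and 9 were higher and 16 lower on day 7, with medians of 0.06 and −0.30 against −0.01 and 0.03 for all genes. All genes were called higher and lower in 22.0% and 19.9% on day 1 and in 30.9% and 28.4% on day 7. Between the days 6 were higher and 13 lower, beside 24.2% and 22.8% of all genes. Relative to cardiomyocyte transcripts, 25 were higher and 1 lower on day 1, beside 64.2% and 2.65% of all genes on this scale. On day 7, 27 were higher and 1 lower, beside 79.3% and 2.80%. Between the days 10 were higher and 4 lower, beside 43.0% and 6.02%. Of 11 membrane proteins and scaffolds, 9 were lower and 1 higher on day 7, with a median of −0.45. These included *Tmem65*, a membrane protein of the disc, at −0.84 ± 0.13, and *Ank2*, the channel anchor ankyrin-B, at −0.68 ± 0.15. On TPM the means in sham and on day 7 were 83.4 and 68.7 for *Tmem65* and 91.9 and 84.3 for *Ank2*. The groups of both genes overlapped on TPM. *Tmem43*, mutated in a form of arrhythmogenic cardiomyopathy, was the member that rose, at 0.60 ± 0.14.

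Of 13 catenins and actin linkers tested, 3 were higher and 4 lower on day 7, near the 30.9% and 28.4% of all genes. *Myzap*, which encodes a disc protein that binds desmoplakin, fell by 54.5% (log2 FC −1.13 ± 0.11, edgeR adjusted p = 1.33e-06), and *Ctnna3*, alpha-T-catenin, was at −0.49 ± 0.13. *Xirp2* was at 0.91 ± 0.24 and *Ctnnd1*, p120-catenin, at 0.49 ± 0.09. Of 3 other desmosomal genes tested, *Ppp1r13l*, which encodes a partner of desmoplakin, was at −0.77 ± 0.09 and *Pkp4*, plakophilin-4, at −0.45 ± 0.07. On TPM the mean of *Myzap* was 306 in sham and 205 on day 7. The means of *Ctnna3* (10.2 and 10.8) and *Pkp4* (54.7 and 57.2) were not lower on day 7 on TPM. *Ppp1r13l* was at 27.3 and 25.5 TPM, and its groups overlapped.

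Of 6 other connexins tested, 4 were higher and 1 lower on day 7, beside 30.9% and 28.4% of all genes. *Gja3* was at −0.66 ± 0.13, and on TPM its groups overlapped, at 9.4 to 14.1 in sham and 8.93 to 10.3 on day 7. *Gjb5*, a connexin known from skin, and *Pkp3*, a plakophilin of epithelia, were called as higher on day 7 from few counts. *Gjb5* had 0 to 10 counts in sham hearts and 21 to 49 on day 7, and *Pkp3* had 0 to 4 and 15 to 36. Of 8 mesothelial and epithelial markers tested, 6 were higher and 1 lower on day 1 and 4 were higher on day 7, with sums of 8.15 to 20.8 CPM in sham, 10.8 to 33.7 on day 1 and 21.8 to 31.2 on day 7, and with *Krt5* at 0 in every heart. Their part in these rises was not tested.

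**Figure D5:**
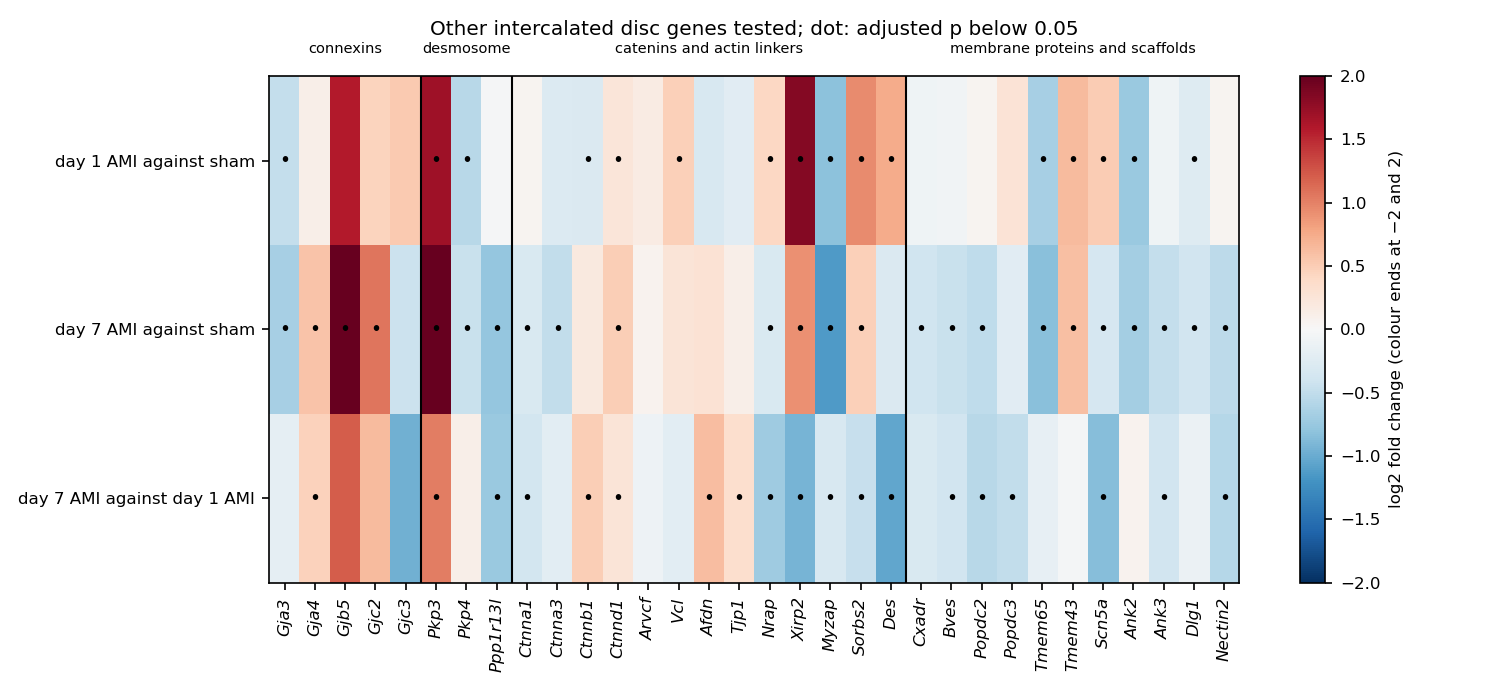
Log2 FC of 32 of the other disc genes tested (columns, in 4 lists) in 3 comparisons (rows), from blue (lower) to red (higher) with the colour ending at −2 and 2, and a dot where the adjusted p was below 0.05. In day 7 AMI against sham, 9 of 11 membrane proteins and scaffolds carry a dot in blue, and *Gjb5* and *Pkp3* are the darkest in red.

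Profiles over the 12 hearts were compared as the root mean square (RMS) difference of log2 CPM after each gene was centred on its own mean. Among the 10 genes, *Dsp* and *Dsc2* (0.158), *Gja1* and *Jup* (0.158), and *Dsp* and *Dsg2* (0.180) were closest. Of all 15306 genes tested, the 3 with the profile most like *Dsg2* were *Prdx3* (0.0858), *Suclg1* (0.0938) and *Pdha1* (0.0973), where the SD of *Dsg2* over the hearts was 0.489. The nearest to *Dsp* were *Gfm1* (0.0533), *Letm1* (0.0627) and *Iars2* (0.0697). *Gja1* was nearest to *Memo1* (0.0935), *Gja5* to *Zfp9* (0.112), *Gjc1* to *Papss2* (0.102), *Pkp2* to *Ipo5* (0.121) and *Jup* to *Fam189a2* (0.0807). *Cdh2* was nearest to *Tcp1* (0.0671) and *Dsc2* to *Maip1* (0.0866). *Xirp1* was nearest to *2310057M21Rik* (0.145) and *Pvr* (0.166), then to *Cryab* (0.194), which encodes a small heat shock protein that protects desmin. These values describe likeness over hearts that share library size and composition, and carry no test.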

How the data were processed

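RNA of 12 whole mouse hearts, 4 per group, was grouped by the sample titles. The authors aligned 150-bp paired-end reads with STAR to GRCm38 and quantified them with RSEM, and the submitters' notes give STAR 2.4.0j and CASAVA 1.8. The authors deposited raw counts for 53801 genes without normalization, and TPM from RSEM. The tool behind the counts and the strand counted are not given in the sources used here, so reads of genes that overlap on opposite strands could not be told apart. All columns were mapped to samples.

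Counts were fitted with edgeR 4.0.16 in R 4.3.3 (TMM, filterByExpr by group, quasi-likelihood test, 1 fit of 3 groups), with Benjamini-Hochberg adjustment over 15306 genes. SEs are those implied by the F statistic. The fit was repeated with libraries scaled to 12 cardiomyocyte markers. Alternatives to this scaling were the marker list without *Myh6*, *Ryr2*, *Pln* and *Ckm*, and a replicate block. Ratios used log2 CPM with a prior count of 2. Alternatives were DESeq2 1.42.0, RLE factors, library sizes alone, no filter, no mitochondrial genes, only the groups compared, a replicate block, limma 3.58.1 on TPM after log2 with 1 or 0.1 added, and leaving out each heart. Nothing shows that hearts of a group were operated or sequenced separately, so p-values measure the spread between these hearts. Libraries of a group differed by a chi-square of at least 9.41 per degree of freedom, so none was deposited in duplicate. On simulated counts for day 1 AMI against sham with 15306 genes, edgeR recovered 36 of 67 genes changed 1.5-fold. It recovered 65 of 67 changed 2-fold and 66 of 66 changed 4-fold, with 12 false calls. The simulation gave every gene the same spread and changed few genes, so these are not the error rates of the real comparison.

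The 10 genes and the lists were chosen with earlier results of these data known. The text names all 10, the 2 largest called rises and falls on day 7 in each of 4 lists of other disc genes, the partners in ratios, the genes with the most similar profiles, and cell type markers set beside a result. A gene that this rule names is not reported here. Positions are from GENCODE M21, and promoters from RefSeq. Plots used matplotlib 3.10.9 and Python 3.11.15.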

Additional observations from a re-analysis of the deposited data

Results flagged for a closer look

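In 3 of 30 groups of 4 hearts, a heart stood apart from the other 3, its gap to the nearest of them, as a share of the whole range, being above Dixon's 95% critical value. Chance alone gives this in about 1 in 20 groups. *Gjc1* was at 25.1 CPM in the third day 1 AMI heart, where the other 3 were at 24.2 to 24.3 CPM. *Jup* was at 363 CPM in the same heart, where the other 3 were at 349 to 351 CPM. Both groups were narrow, with a coefficient of variation of 1.83% for *Gjc1* and 1.80% for *Jup*. *Dsp* was at 1148 CPM in the third day 7 AMI heart, where the other 3 were at 916 to 944 CPM. Without that heart the fall of *Dsp* on day 7 against sham was still called.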

How the results depend on the processing

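The scaling of libraries changed more calls than the tool did, and its cause was not tested. On library sizes alone, 6 genes were higher and 0 lower on day 1, and 3 higher and 2 lower on day 7. Between the days 2 were higher and 5 lower on that scale. With limma on log2(TPM + 1) the counts were 6 and 0, then 5 and 1, then 2 and 4. The same counts were found on log2(TPM + 0.1). Without a filter on TPM they were 6 and 0, then 4 and 1, then 1 and 4. Without the count filter 1 gene was lower on day 1. Directions turned on library sizes alone for *Gjc1* on day 1 (0.20) and for *Gja1* (0.38), *Pkp2* (0.14) and *Jup* (0.19) on day 7 against sham. They turned on log2(TPM + 1), with or without the filter, for *Gjc1* (0.24) and *Dsc2* (0.025) on day 1 and for *Gja1* (0.54), *Pkp2* (0.30), *Jup* (0.36), *Cdh2* (0.13) and *Xirp1* (0.037) on day 7. On log2(TPM + 0.1) these were 0.26, 0.027, 0.54, 0.31, 0.36, 0.13 and 0.037. The *Gja5*/*Gja1* ratio on day 7 was 0.81 (exact permutation p = 0.0571) on log2(TPM + 0.1).

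Leaving out 1 heart gave 2 to 3 genes higher and 1 to 3 lower on day 1, 2 higher and 4 to 7 lower on day 7, and 1 higher and 5 to 8 lower between the days. The count lower on day 1 was 1 without sham heart 1, 3 or 4 or day 1 heart 1, 2 or 3. Values near 0 changed sign for *Gjc1* on day 1 (−0.15 to 0.011), *Jup* on day 1 (−0.054 to 0.12) and *Gja1* on day 7 (−0.12 to 0.019). Relative to cardiomyocyte transcripts, *Gja1* (−0.025 to 0.065) and *Dsc2* (−0.071 to 0.11) did so between the days. The exact permutation p of a ratio rose from 0.0286 to 0.0571 in 19 fits and fell to 0.0286 in 1, that of *Gja5*/*Gja1* on day 1 without day 1 heart 4. On day 7 against sham, the log2 differences ran from 0.81 to 1.08 for *Gja5*/*Gja1* and 0.41 to 0.65 for *Gjc1*/*Gja1*. They ran from 0.40 to 0.56 for *Dsc2*/*Dsg2*, 0.40 to 0.52 for *Pkp2*/*Dsp* and −1.63 to −1.25 for *Xirp1*/*Xirp2*. On day 1 they ran from 0.55 to 0.83 for *Pkp2*/*Dsp* and 0.30 to 0.53 for *Gja5*/*Gja1*. Between the days they ran from 0.31 to 0.46 for *Dsc2*/*Dsg2*.

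The replicate numbers are those of separate mice. The correlation of deviations of hearts with the same number ran from −0.07 to 0.23 on day 1 against sham, −0.24 to 0.13 on day 7 against sham and −0.11 to 0.15 between the days, so the numbers were not taken to pair the hearts. With the replicate block, 2 genes were higher and 2 lower on day 1, 2 higher and 5 lower on day 7, and 1 higher and 5 lower between the days. A pairing of 4 hearts cannot give a ratio a p under 0.05, so the paired ratios are values without a test.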
